A study of Mus musculus with 12 samples.

Results

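Phase II conjugation is the step of hepatic detoxification in which a polar group is joined to a drug, hormone, bilirubin or bile acid. Its UDP-glucuronosyltransferase (UGT), sulfotransferase (SULT) and glutathione S-transferase (GST) genes were followed here in mouse liver after deletion of *Cdk1*, the kinase that drives mitosis. The genes were taken by symbol, as those named Ugt1a, Ugt2a, Ugt2b, Ugt3a, Sult or Gst (alpha, kappa, mu, omega, pi, theta or zeta) followed by a number. The rule took 61 of the 47069 genes in the table: 21 UGT, 19 SULT and 21 GST genes. Of these, 50 had a mean of at least 0.1 FPKM over the 12 libraries and were tested (16 UGT, 14 SULT and 20 GST genes), and 11 were not.

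The mice were 14 days old (P14), and the 4 groups of 3 libraries were isolated hepatocytes and whole liver of wild type (WT) and of Cdk1 Liv-/- animals. Cdk1 Liv-/- mice carried Cdk1 flox/flox together with Albumin-Cre, which is active in hepatocytes and their precursors, and deletion in other liver cells was not measured here. The strain, and whether WT mice carried the floxed allele, could not be found in the deposited records, and whether hepatocytes and whole liver came from the same animals is not given either. PolyA RNA was sequenced as stranded single-end libraries with 75 bp reads, and levels are in FPKM (fragments per kilobase of transcript, scaled to the mapped fragments of the library). The low values of each library placed its depth at 34.4 to 49.4 reads for 1 FPKM on 1 kb of transcript, so that values of a few hundredths of an FPKM rest on few reads. Values in brackets of 3 are always those of replicates 1, 2 and 3, which have no order and share only a number between groups.

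UGT enzymes sit in the endoplasmic reticulum and transfer glucuronic acid from UDP-glucuronic acid, and UGT1A1 is the enzyme that makes bilirubin excretable. SULT enzymes are cytosolic and transfer a sulfonate group from PAPS, the SULT2A enzymes to hydroxysteroids and bile acids. GST enzymes join glutathione to electrophiles, and many of them are under the control of NRF2, the transcription factor of the antioxidant response, or of the xenobiotic sensors AhR, CAR and PXR.

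Copies that share sequence are frequent among these genes, so what the reads can separate was examined first. The Sult2a genes stood out because 1 of them, *Sult2a4*, was called higher and others lower, by the thresholds given below. A stretch of 75 coding bases of exon 2, the length of 1 read, is shown for 4 of them from the GENCODE annotation of GRCm38, chosen as the stretch in which *Sult2a4* differed most beyond the difference of *Sult2a2*. Capitals mark bases that differ from *Sult2a1* (chr7:13836048-13836122, minus strand). *Sult2a2* (chr7:13734794-13734868, plus strand) and *Sult2a5* (chr7:13625284-13625358, plus strand) differed at 3 bases each, and *Sult2a4* (chr7:13988284-13988358, minus strand) differed at 10.
Sult2a1: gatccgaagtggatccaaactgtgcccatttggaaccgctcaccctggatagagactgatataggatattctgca
Sult2a2: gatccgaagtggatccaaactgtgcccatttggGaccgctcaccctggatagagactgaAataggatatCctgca
Sult2a5: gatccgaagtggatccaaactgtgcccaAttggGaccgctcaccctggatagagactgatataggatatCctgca
Sult2a4: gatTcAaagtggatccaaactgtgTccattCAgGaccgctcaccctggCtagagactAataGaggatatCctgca
Over the whole coding sequence of 855 bases *Sult2a5* differed from *Sult2a1* at 44 bases and *Sult2a4* at 51. Of all 75-base windows of a gene's transcripts, the share also found in transcripts of another gene was 19.5% for *Sult2a1*, 47.2% for *Sult2a2*, 25.6% for *Sult2a5* and 11.5% for *Sult2a4*. The share was 84.7% for *Gsta1*, 36.6% for *Gsta2*, 57.7% for *Ugt1a1*, 74.8% for *Ugt1a6b*, 59.4% for *Ugt1a9*, 11.7% for *Gstm1*, 21.6% for *Gstm3*, 29.2% for *Gstp1* and 11.5% for *Gstt3*. It was 0 for *Gsta3*, *Gstt2*, *Sult1c2*, *Sult1d1*, *Sult1e1* and *Ugt2b36*. RSEM divides reads from shared windows between the copies, so the FPKM of genes with large shares are uncertain. Sums given further on are over members that share a name stem, and leave out copies that are not members, such as *Gm3776*, with which *Gsta1* shared 69.3% of its windows.

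The level of *Cdk1* was read first as a check of the labels. The level of *Cdk1* in hepatocytes was 27.9, 20.4 and 28.2 FPKM in WT and 9.68, 11.8 and 6.87 in Cdk1 Liv-/-. Whole-liver libraries held 25.3, 22.7 and 21.5 FPKM in WT and 11.7, 12.1 and 14.2 in Cdk1 Liv-/-. Every Cdk1 Liv-/- library lay below every WT library of its compartment. The log2 fold change of FPKM + 0.5, the scale of all fold changes here, fell by 1.40 in hepatocytes (SE 0.22, adjusted p = 0.0148 from limma) and by 0.85 in whole liver (SE 0.10, adjusted p = 0.00353), and the fall did not differ between the compartments by the interaction term (-0.55, adjusted p = 0.224). The gene-level value also counts reads from outside the deleted exon.

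One library went against the description of the animals. The methods state that only male mice were used, but whole liver Cdk1 Liv-/- replicate 3 had 158 FPKM of *Xist*, at most 0.14 FPKM in the other 11 libraries, and listed the Y-linked *Ddx3y*, *Eif2s3y*, *Uty* and *Kdm5d* at 0, all of them detected in the other 11. For part of the members the whole-liver change is therefore also given without this library. The methods speak of 3 or more biological replicates in all experiments, and the labels do not say whether these were separate animals.

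Markers of the liver's cell types differed between the groups as well, and were read as summed FPKM of fixed lists. The hepatocyte list, led by *Alb*, summed to 84708, 93008 and 87722 FPKM in WT hepatocytes, 59713, 60439 and 57237 in Cdk1 Liv-/- hepatocytes, 87086, 85691 and 87881 in WT whole liver and 67692, 59944 and 65659 in Cdk1 Liv-/- whole liver. Cdk1 Liv-/- libraries were the lower ones in both compartments. *Alb* averaged 62176 ± 2145 FPKM in WT and 42218 ± 2514 in Cdk1 Liv-/- hepatocytes (SD, n = 3, limma log2 fold change -0.56, SE 0.38, adjusted p = 0.376). In whole liver *Alb* averaged 59004 ± 2164 in WT and 45610 ± 2064 in Cdk1 Liv-/- (-0.37, SE 0.22, adjusted p = 0.242). *Alb* did not pass in either compartment, although every Cdk1 Liv-/- library lay below every WT library of its compartment. The limma SE also draws on the spread of other genes. *Cps1* was higher in hepatocytes (0.66, adjusted p = 0.057) and lower in whole liver (-0.95, adjusted p = 0.00319). Limma called 0 of 10 genes higher and 1 lower in hepatocytes and none in whole liver. At an unadjusted p under 0.05 there were 2 higher and 4 lower in hepatocytes, and 5 lower in whole liver. The endothelial list, led by *Stab1*, came to 167, 115 and 322 FPKM in WT hepatocytes, 81.1, 50.4 and 60.7 in Cdk1 Liv-/- hepatocytes, 159, 185 and 221 in WT whole liver and 200, 247 and 205 in Cdk1 Liv-/- whole liver. All 3 Cdk1 Liv-/- hepatocyte libraries lay below all WT ones, with 9 of 10 genes called lower, and whole liver had 0 of 10 called by limma and 2 higher at an unadjusted p under 0.05. For the Kupffer cell list, led by *Cd5l*, the sums were 325, 175 and 598 FPKM in WT hepatocytes, 203, 152 and 131 in Cdk1 Liv-/- hepatocytes, 460, 515 and 520 in WT whole liver and 604, 832 and 636 in Cdk1 Liv-/- whole liver. For stellate cells and fibroblasts, led by *Col3a1*, they were 255, 152 and 542 FPKM in WT hepatocytes, 146, 127 and 115 in Cdk1 Liv-/- hepatocytes, 544, 541 and 603 in WT whole liver and 913, 1089 and 875 in Cdk1 Liv-/- whole liver. In hepatocytes 1 of 10 genes of each of these lists was called lower, and in whole liver 2 of 10 stellate and fibroblast genes were called higher and 0 of 10 Kupffer cell genes, 4 of which were higher at an unadjusted p under 0.05. The cholangiocyte list, led by *Spp1*, reached 29.4, 24.5 and 39 FPKM in WT hepatocytes, 76.5, 139 and 113 in Cdk1 Liv-/- hepatocytes, 71.9, 76.8 and 58.3 in WT whole liver and 298, 160 and 289 in Cdk1 Liv-/- whole liver. Of its 8 genes tested 4 were called higher in hepatocytes and 5 in whole liver, and *Cftr* was at 0 in WT hepatocyte replicate 2. Erythroid genes, led by *Hbb-bs*, summed to 148, 109 and 583 FPKM in WT hepatocytes, 72.6, 101 and 24.8 in Cdk1 Liv-/- hepatocytes, 1106, 1231 and 2172 in WT whole liver and 1166, 1769 and 1457 in Cdk1 Liv-/- whole liver. Neutrophil and monocyte genes, led by *S100a9*, summed to 14.6, 12.2 and 49.4 FPKM in WT hepatocytes, 21.5, 11.1 and 20.2 in Cdk1 Liv-/- hepatocytes, 72.2, 45.2 and 68.6 in WT whole liver and 92.6, 313 and 251 in Cdk1 Liv-/- whole liver. B, T and NK cell genes, led by *Cd79b*, gave 5, 3.46 and 8.99 FPKM in WT hepatocytes, 1.89, 1.34 and 1.31 in Cdk1 Liv-/- hepatocytes, 18.4, 19.8 and 18 in WT whole liver and 10.4, 18.3 and 14.5 in Cdk1 Liv-/- whole liver. Erythroid genes had 2 of 9 called lower in hepatocytes and 1 in whole liver, and lymphoid genes 2 of 10 called lower in hepatocytes. Neutrophil and monocyte genes had 1 of 10 called higher in hepatocytes and 6 in whole liver, and their *Ly6g* was at 0 in WT hepatocyte replicate 1 and Cdk1 Liv-/- hepatocyte replicates 2 and 3. In hepatocytes the stellate and fibroblast, erythroid and lymphoid sums of Cdk1 Liv-/- also lay wholly below WT. Kupffer cell sums and neutrophil and monocyte sums overlapped there, and cholangiocyte sums lay above. Calls on these lists stand beside 4.20% of all genes called higher and 2.17% lower in hepatocytes, and 4.59% and 1.00% in whole liver. The part of these marker differences in the results that follow was not tested. In bulk samples fewer cells of a type and less RNA per cell cannot be told apart.

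**Figure D1:**
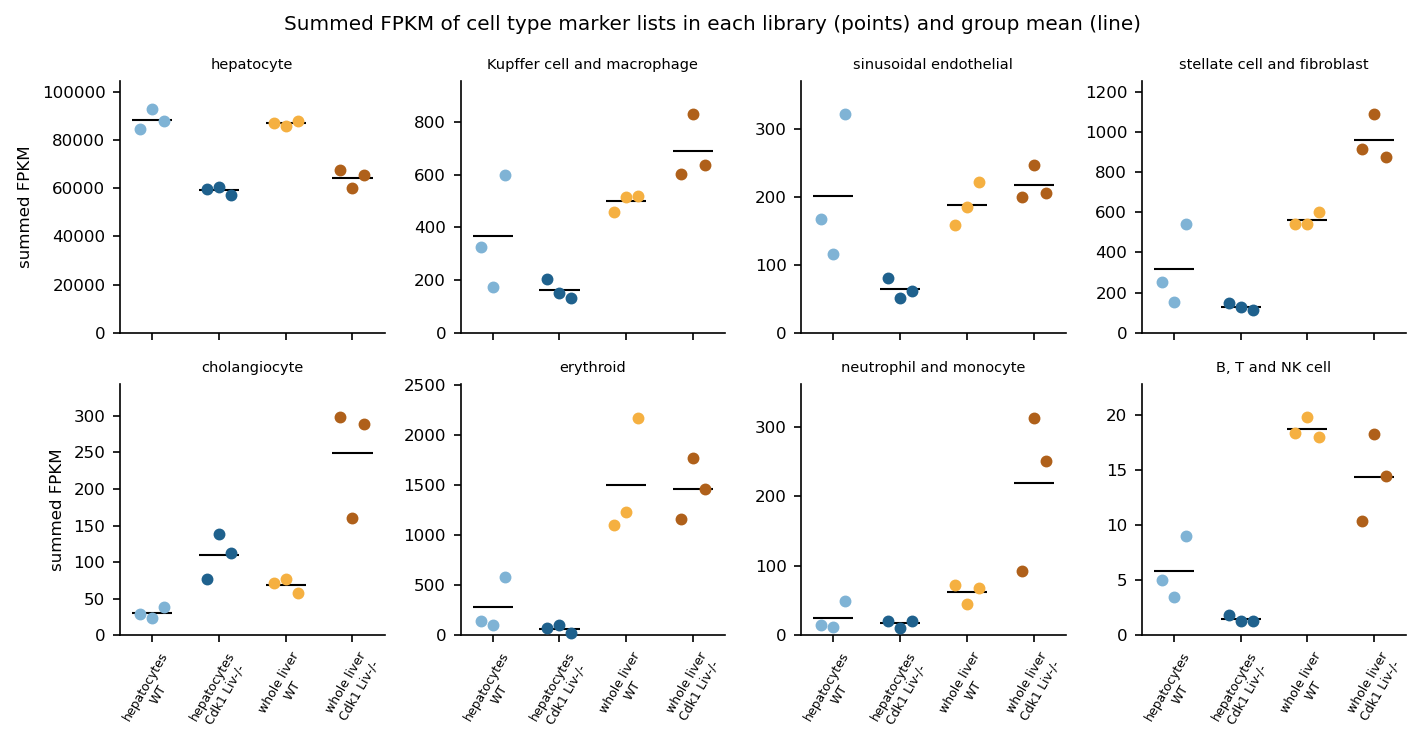
Summed FPKM (linear vertical axis from 0) of 8 cell type marker lists in each of the 12 libraries (points) with the mean of each group of 3 (line). Endothelial sums are lower in all 3 Cdk1 Liv-/- hepatocyte libraries (50.4 to 81.1) than in WT hepatocytes (115 to 322). Hepatocyte, stellate and fibroblast, erythroid and lymphoid sums are also lower there without overlap. Cholangiocyte sums are higher in Cdk1 Liv-/- libraries of both compartments.

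Calls required an adjusted p no higher than 0.1 together with a log2 change of 1 or more in either direction. The share of all genes at an unadjusted p under 0.05 was not counted. Counts of members or list genes at that threshold are therefore not read as a trait of those genes. In hepatocytes 14 of the 50 members tested were called higher in Cdk1 Liv-/- and 4 lower, where 4.20% and 2.17% of all 17386 genes tested were called in those directions. At adjusted p alone 18 members were higher and 7 lower, beside 12.1% and 6.61% of all genes. In whole liver 8 members were called higher and 7 lower, beside 4.59% and 1.00% of all genes, and at adjusted p alone 16 were higher and 16 lower, beside 38.0% and 7.53%. The genotype groups did not overlap for 30 of the 50 members in hepatocytes (34.0% of all genes) and for 35 in whole liver (52.1% of all genes). Both compartments shared 12 called members, all in the same direction, 6 were called in hepatocytes alone, 3 in whole liver alone and 29 in neither. Of 20 GST genes 9 were called higher in hepatocytes and 5 in whole liver (6 and 4 after scaling by size factors), and limma called 0 lower in either, with 2 lower in each at an unadjusted p under 0.05 and 0 called lower by a two-sample test with q-values. Of 14 SULT genes 2 were called higher and 4 lower in hepatocytes, and 1 higher and 7 lower in whole liver (1 and 8 with size factors). Of 16 UGT genes 3 were called higher in hepatocytes and 2 in whole liver (1 with size factors). None of the UGT genes was called lower by limma or by the two-sample test, though 1 in hepatocytes and 5 in whole liver were lower at an unadjusted p under 0.05, and 1 was called lower in hepatocytes with size factors.

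Median log2 fold changes of the members were 0.25 in hepatocytes, beside 0.05 for all genes, and -0.03 in whole liver, beside 0.18. Dividing the FPKM by median-ratio size factors moved the whole-liver median of all genes from 0.18 to 0.04 and that of the members to -0.19, so a rise in whole liver is read against a table that lay above 0 as deposited. With size factors the members called were 11 higher and 5 lower in hepatocytes and 6 higher and 8 lower in whole liver, where the share of higher among all calls went from 82.1% to 70.9%. Without whole liver Cdk1 Liv-/- replicate 3 the whole-liver counts were 8 higher and 6 lower, and without replicate 2 of that group they were 11 and 4. The 4 members called lower in hepatocytes became 2 without WT replicate 1, 2 without WT replicate 2 and 2 with no filter on low values. Without Cdk1 Liv-/- hepatocyte replicate 1 the members called lower were more, 5 SULT genes and 1 UGT gene. The filter was passed by *Gsta1* and *Ugt2b37* through the Cdk1 Liv-/- groups alone and by *Ugt1a10* through the WT groups alone, so the counts over tested members do not stand for all 61. Highest values of the 11 untested members ran from 0 for *Sult1c1* and *Ugt2a1* to 0.13 FPKM for *Ugt1a2*. Whole liver Cdk1 Liv-/- replicate 2 was the lowest of its group in 36 of the 50 members, and WT hepatocyte replicate 3 the lowest of its own in 31.

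**Figure D2:**
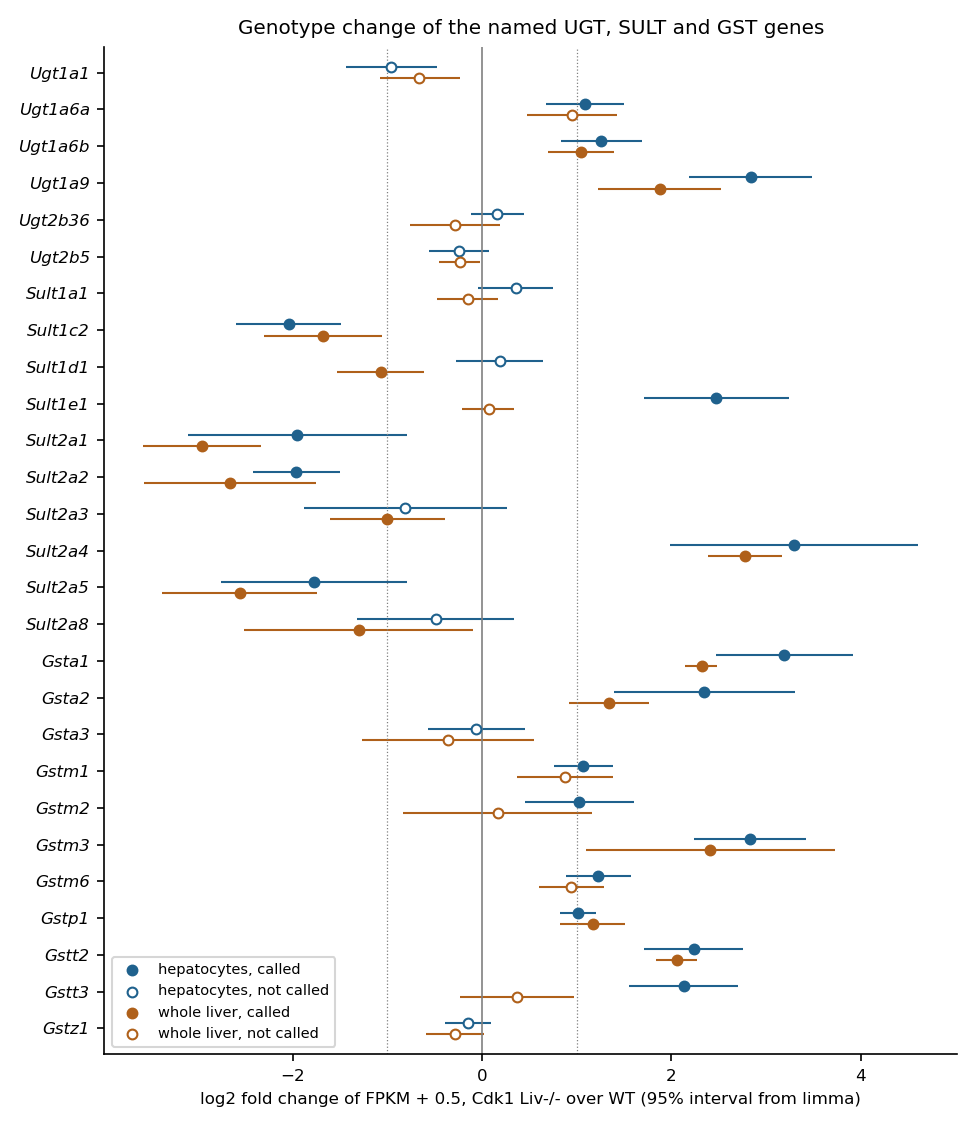
Log2 fold change of FPKM + 0.5, Cdk1 Liv-/- over WT (horizontal axis), for 27 named members in hepatocytes (blue) and whole liver (orange), 3 libraries a group. Points are the limma estimates, lines their 95% intervals, filled points are called members and dotted lines mark a change of 1 in either direction; the Sult2a genes span -2.96 to 3.30.

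Among the UGT genes the Ugt1a locus changed its make-up. Its members join their own first exon to shared exons on chromosome 1, so that *Ugt1a9* (mm10 chr1:88070800-88218997, plus strand) and *Ugt1a1* (chr1:88211959-88218997, plus strand) end at the same base. *Ugt1a9* measured 5.30, 5.89 and 8.54 FPKM in WT hepatocytes and 70.6, 40.0 and 42.0 in Cdk1 Liv-/- hepatocytes. Whole liver had 5.88, 5.20 and 9.05 FPKM in WT and 22.9, 20.7 and 34.5 in Cdk1 Liv-/-. All 6 Cdk1 Liv-/- libraries were far above the WT libraries, and *Ugt1a9* was called higher in hepatocytes (log2 fold change 2.84, SE 0.27, adjusted p = 0.00341) and in whole liver (log2 fold change 1.88, SE 0.26, adjusted p = 0.00592, and 1.66 without replicate 3 of Cdk1 Liv-/-). Hepatocyte libraries had 17.7, 22.8 and 15.1 FPKM of *Ugt1a6b* in WT and 52.3, 39.1 and 43.2 in Cdk1 Liv-/-. The whole-liver values of *Ugt1a6b* were 19.3, 21.0 and 17.4 FPKM in WT and 47.7, 33.2 and 41.2 in Cdk1 Liv-/-. Groups did not overlap in either compartment for *Ugt1a6b*, which conjugates planar phenols, and it was called in hepatocytes (log2 fold change 1.26, SE 0.18, adjusted p = 0.0105) and in whole liver (log2 fold change 1.05, SE 0.14, adjusted p = 0.00542). The whole-liver change of *Ugt1a6b* was 0.98 without WT replicate 3, 0.93 without Cdk1 Liv-/- replicate 1 and 0.87 with size factors, each short of the fold threshold. In WT hepatocytes *Ugt1a6a* was at 16.8, 20.4 and 13.2 FPKM, and in Cdk1 Liv-/- hepatocytes at 40.1, 34.0 and 33.5. WT whole liver gave 16.6, 17.7 and 13.5 FPKM and Cdk1 Liv-/- whole liver 36.1, 23.5 and 35.6. Again no WT library of *Ugt1a6a* reached a Cdk1 Liv-/- one. It was called in hepatocytes (log2 fold change 1.09, SE 0.17, adjusted p = 0.0141), where the change was 0.93 without WT replicate 3. In whole liver (log2 fold change 0.95, SE 0.19, adjusted p = 0.0164) it passed the fold threshold without WT replicate 2 (1.03) and without Cdk1 Liv-/- replicate 2 (1.15).

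The bilirubin enzyme *Ugt1a1* was the most abundant UGT1A gene and lay on the other side. WT hepatocytes gave 221, 249.9 and 229.5 FPKM for *Ugt1a1*, and Cdk1 Liv-/- hepatocytes gave 150.2, 87.4 and 131. For whole liver the values were 255, 290.4 and 244 FPKM in WT and 198, 129 and 181 in Cdk1 Liv-/-. WT libraries were above all Cdk1 Liv-/- libraries of the same compartment, by 0.96 on the log2 scale in hepatocytes (SE 0.20, adjusted p = 0.0345) and 0.66 in whole liver (SE 0.17, adjusted p = 0.0333), which passed the adjusted p and not the fold threshold. In hepatocytes it was called lower with size factors (-1.05), and when Cdk1 Liv-/- replicate 1 (-1.12) or replicate 3 (-1.02) was left out. As a share of the summed FPKM of the Ugt1a genes, *Ugt1a1* made up 84.2% in WT and 47.8% in Cdk1 Liv-/- hepatocytes, and 85.7% and 62.7% in whole liver. The share of *Ugt1a9* was 2.37% and 19.8% in hepatocytes, and 2.18% and 9.64% in whole liver. The sum of the locus itself was 263, 301 and 268 FPKM in WT hepatocytes, 315, 204 and 253 in Cdk1 Liv-/- hepatocytes, 299, 337 and 285 in WT whole liver and 308, 208 and 295 in Cdk1 Liv-/- whole liver. These sums overlapped between the genotypes in both compartments (log2 difference -0.13, two-sided exact permutation p = 0.60 in hepatocytes, and -0.20, p = 0.50 in whole liver). With 3 libraries against 3 the smallest p this permutation test can give is 0.10.

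None of the 6 Ugt2b genes tested was called in either compartment by limma or by the two-sample test, and at an unadjusted p under 0.05 there was 1 higher in hepatocytes, and 1 higher and 3 lower in whole liver. The low *Ugt2b37*, under 1 FPKM on average in every group, was called higher in hepatocytes with a pseudocount of 0.1 (2.11) and without Cdk1 Liv-/- replicate 1 (1.27). The level of *Ugt2b36* in hepatocytes was 243, 234 and 185 FPKM in WT and 251, 244 and 241 in Cdk1 Liv-/-. Whole-liver libraries held 259.6, 268 and 228 FPKM in WT and 249.9, 153 and 229 in Cdk1 Liv-/-. Both genotypes of *Ugt2b36* overlapped in both compartments (log2 fold change 0.16, adjusted p = 0.414 in hepatocytes, and -0.28, adjusted p = 0.295 in whole liver). *Ugt2b5* measured 167, 177 and 133 FPKM in WT hepatocytes and 126, 148 and 127 in Cdk1 Liv-/- hepatocytes. Whole liver had 154, 156 and 144 FPKM in WT and 131, 115 and 142 in Cdk1 Liv-/-. Hepatocyte groups of *Ugt2b5* overlapped, and in whole liver the Cdk1 Liv-/- libraries were slightly below the WT ones (-0.23, SE 0.09, adjusted p = 0.0875). Summed over the Ugt2b genes, levels were 664, 671 and 512 FPKM in WT hepatocytes, 580, 604 and 552 in Cdk1 Liv-/- hepatocytes, 649, 652 and 568 in WT whole liver and 558, 419 and 547 in Cdk1 Liv-/- whole liver. The Ugt2b sum overlapped in hepatocytes (-0.08, exact permutation p = 0.60) and lay lower in every Cdk1 Liv-/- whole-liver library (-0.30, exact permutation p = 0.10, and -0.49 with size factors). The other UGT genes tested ran from -0.31 to 0.99 in hepatocytes and from -0.73 to 0.52 in whole liver.

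Of the SULT genes, the Sult2a genes on chromosome 7 held the largest changes in FPKM. Hepatocyte libraries had 1038, 1015 and 672 FPKM of *Sult2a1* in WT and 451, 118 and 229 in Cdk1 Liv-/-. The whole-liver values of *Sult2a1* were 1059, 1129 and 905 FPKM in WT and 191, 97.5 and 122 in Cdk1 Liv-/-. *Sult2a1* (chr7:13796246-13837409, minus strand), a hydroxysteroid and bile acid sulfotransferase, was lower in all 6 Cdk1 Liv-/- libraries, with a wide spread among the Cdk1 Liv-/- hepatocyte libraries. It fell by 2.96 in whole liver (SE 0.25, adjusted p = 0.00146, and by 2.91 without replicate 3 of Cdk1 Liv-/-). In hepatocytes it fell by 1.95 (SE 0.48, adjusted p = 0.0539), and the call was lost without WT replicate 1 (adjusted p = 0.152), WT replicate 2 (0.125) or Cdk1 Liv-/- replicate 3 (0.137) and with no filter (0.14), while the change stayed at -1.95 to -1.84 in these. Its adjusted p ran from 0.00661 to 0.152 over the alternatives. In WT hepatocytes *Sult2a2* was at 694, 689 and 493 FPKM, and in Cdk1 Liv-/- hepatocytes at 182, 128 and 171. WT whole liver gave 754, 785 and 654 FPKM and Cdk1 Liv-/- whole liver 176, 63.4 and 135. *Sult2a2* was low in every Cdk1 Liv-/- library, with no overlap, and fell by 1.96 in hepatocytes (SE 0.19, adjusted p = 0.00361) and by 2.66 in whole liver (SE 0.37, adjusted p = 0.00577, and by 2.78 without replicate 3). WT hepatocytes gave 170.2, 174 and 102 FPKM for *Sult2a5*, and Cdk1 Liv-/- hepatocytes gave 75.9, 27.6 and 34.8. For whole liver the values were 191, 200.2 and 143 FPKM in WT and 45.9, 18.5 and 29.6 in Cdk1 Liv-/-. The pattern of *Sult2a5* was the same, a fall of 1.78 in hepatocytes (SE 0.41, adjusted p = 0.0445) and of 2.56 in whole liver (SE 0.33, adjusted p = 0.00482). Its hepatocyte call was lost without WT replicate 1 (adjusted p = 0.135), WT replicate 2 (0.111), Cdk1 Liv-/- replicate 2 (0.106) or Cdk1 Liv-/- replicate 3 (0.129) and with no filter (0.122), in a range of 0.0089 to 0.135, with changes of -1.78 to -1.48 in these.

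In the opposite direction went *Sult2a4* (chr7:13909676-13989607, minus strand), whose exon 2 stretch is printed above with 10 bases unlike those of *Sult2a1*. The level of *Sult2a4* in hepatocytes was 0.37, 0.48 and 0.39 FPKM in WT and 21.3, 4.26 and 6.55 in Cdk1 Liv-/-. Whole-liver libraries held 0.41, 0.47 and 0.54 FPKM in WT and 7.16, 6.84 and 4.79 in Cdk1 Liv-/-. WT libraries were all at 0.54 FPKM or less and all 6 Cdk1 Liv-/- libraries were above them, hepatocyte replicate 1 highest. *Sult2a4* was called higher in hepatocytes (log2 fold change 3.30, SE 0.54, adjusted p = 0.0165) and in whole liver (log2 fold change 2.78, SE 0.16, adjusted p = 0.000448, and 2.95 without replicate 3 of Cdk1 Liv-/-). Over the alternatives the change of *Sult2a4* ran from 2.67 to 4.06 in hepatocytes and from 2.29 to 3.46 in whole liver. Its share of the Sult2a sum was 0.0231% in WT and 1.88% in Cdk1 Liv-/- hepatocytes, and 0.0229% and 1.74% in whole liver. *Sult2a8* measured 97.7, 91.1 and 75.4 FPKM in WT hepatocytes and 101, 37.6 and 63.4 in Cdk1 Liv-/- hepatocytes. Whole liver had 114, 118 and 89.1 FPKM in WT and 80.9, 20.0 and 48.2 in Cdk1 Liv-/-. Hepatocyte groups of *Sult2a8* overlapped and whole-liver groups did not, with a fall of 1.30 in whole liver (SE 0.49, adjusted p = 0.0899). That call was lost without WT replicate 1 (adjusted p = 0.205), WT replicate 2 (0.201), WT replicate 3 (0.146), Cdk1 Liv-/- replicate 3 (0.154), without Cdk1 Liv-/- replicate 2 through its size (-0.76), and with no filter (0.186), the range being 0.033 to 0.205. Hepatocyte libraries had 2.47, 2.30 and 1.85 FPKM of *Sult2a3* in WT and 2.66, 0.61 and 0.54 in Cdk1 Liv-/-. The whole-liver values of *Sult2a3* were 1.49, 1.78 and 2.46 FPKM in WT and 0.99, 0.36 and 0.81 in Cdk1 Liv-/-. *Sult2a3* overlapped in hepatocytes (-0.81, adjusted p = 0.284), where it was called without Cdk1 Liv-/- replicate 1 (-1.33), and was lower in whole liver by 1.00 (SE 0.25, adjusted p = 0.029). Its whole-liver change was -0.84 without WT replicate 3, -0.77 without Cdk1 Liv-/- replicate 2, -0.76 with a pseudocount of 1 and -0.97 with equal sums, none of them called. Summed over all Sult2a genes, levels were 2019, 1988 and 1357 FPKM in WT hepatocytes, 868, 325 and 517 in Cdk1 Liv-/- hepatocytes, 2134, 2263 and 1811 in WT whole liver and 514, 218 and 350 in Cdk1 Liv-/- whole liver. Every Cdk1 Liv-/- sum was below every WT sum, by 1.74 on the log2 scale in hepatocytes and 2.60 in whole liver, each at the smallest exact permutation p of 0.10.

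The SULT1 genes did not move together. In WT hepatocytes *Sult1c2* was at 9.70, 11.2 and 15.3 FPKM, and in Cdk1 Liv-/- hepatocytes at 3.31, 2.39 and 1.96. WT whole liver gave 13.4, 12.7 and 14.7 FPKM and Cdk1 Liv-/- whole liver 4.36, 5.37 and 2.46. *Sult1c2* was lower in every Cdk1 Liv-/- library, by 2.04 in hepatocytes (SE 0.23, adjusted p = 0.00554) and by 1.68 in whole liver (SE 0.25, adjusted p = 0.00713, and 1.40 without replicate 3 of Cdk1 Liv-/-). WT hepatocytes gave 0.05, 0.04 and 0.05 FPKM for *Sult1e1*, and Cdk1 Liv-/- hepatocytes gave 3.74, 1.34 and 3.09. For whole liver the values were 0.12, 0.12 and 0.12 FPKM in WT and 0.07, 0.14 and 0.25 in Cdk1 Liv-/-. The estrogen sulfotransferase *Sult1e1* (chr5:87575969-87591594, minus strand) was at the level of few reads in 9 libraries and stood out in the 3 Cdk1 Liv-/- hepatocyte libraries alone. Its mean of 0.761 FPKM over the 12 libraries came mainly from those 3, so its p-values are not independent of the filter. *Sult1e1* was called higher in hepatocytes (log2 fold change 2.47, SE 0.32, adjusted p = 0.00742), and 4.15 with a pseudocount of 0.1, since log2(FPKM + 0.5) understates changes of low genes. In whole liver its groups overlapped (0.07, adjusted p = 0.667, and -0.04 without replicate 3 of Cdk1 Liv-/-). The level of *Sult1d1* in hepatocytes was 103, 103 and 98.4 FPKM in WT and 133, 84.9 and 138 in Cdk1 Liv-/-. Whole-liver libraries held 142, 142 and 127 FPKM in WT and 80.9, 48.6 and 69.8 in Cdk1 Liv-/-. Hepatocyte groups of its neighbour *Sult1d1* (chr5:87554645-87569027, minus strand) overlapped (0.19, adjusted p = 0.543), whereas in whole liver all Cdk1 Liv-/- libraries were below WT, by 1.07 (SE 0.19, adjusted p = 0.0108). Without whole liver Cdk1 Liv-/- replicate 2 the fall of *Sult1d1* was 0.86 and no longer called, and without replicate 3 it was 1.12. *Sult1a1* measured 275, 280.4 and 287 FPKM in WT hepatocytes and 415, 277 and 402 in Cdk1 Liv-/- hepatocytes. Whole liver had 341, 344 and 328 FPKM in WT and 318, 249.8 and 352 in Cdk1 Liv-/-. The phenol sulfotransferase *Sult1a1*, the most abundant SULT1 gene, overlapped in both compartments (0.36, adjusted p = 0.212 in hepatocytes, and -0.15, adjusted p = 0.395 in whole liver). The other SULT genes tested ran from -0.30 to 0.42 in hepatocytes and from -0.90 to 0.42 in whole liver.

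**Figure D3:**
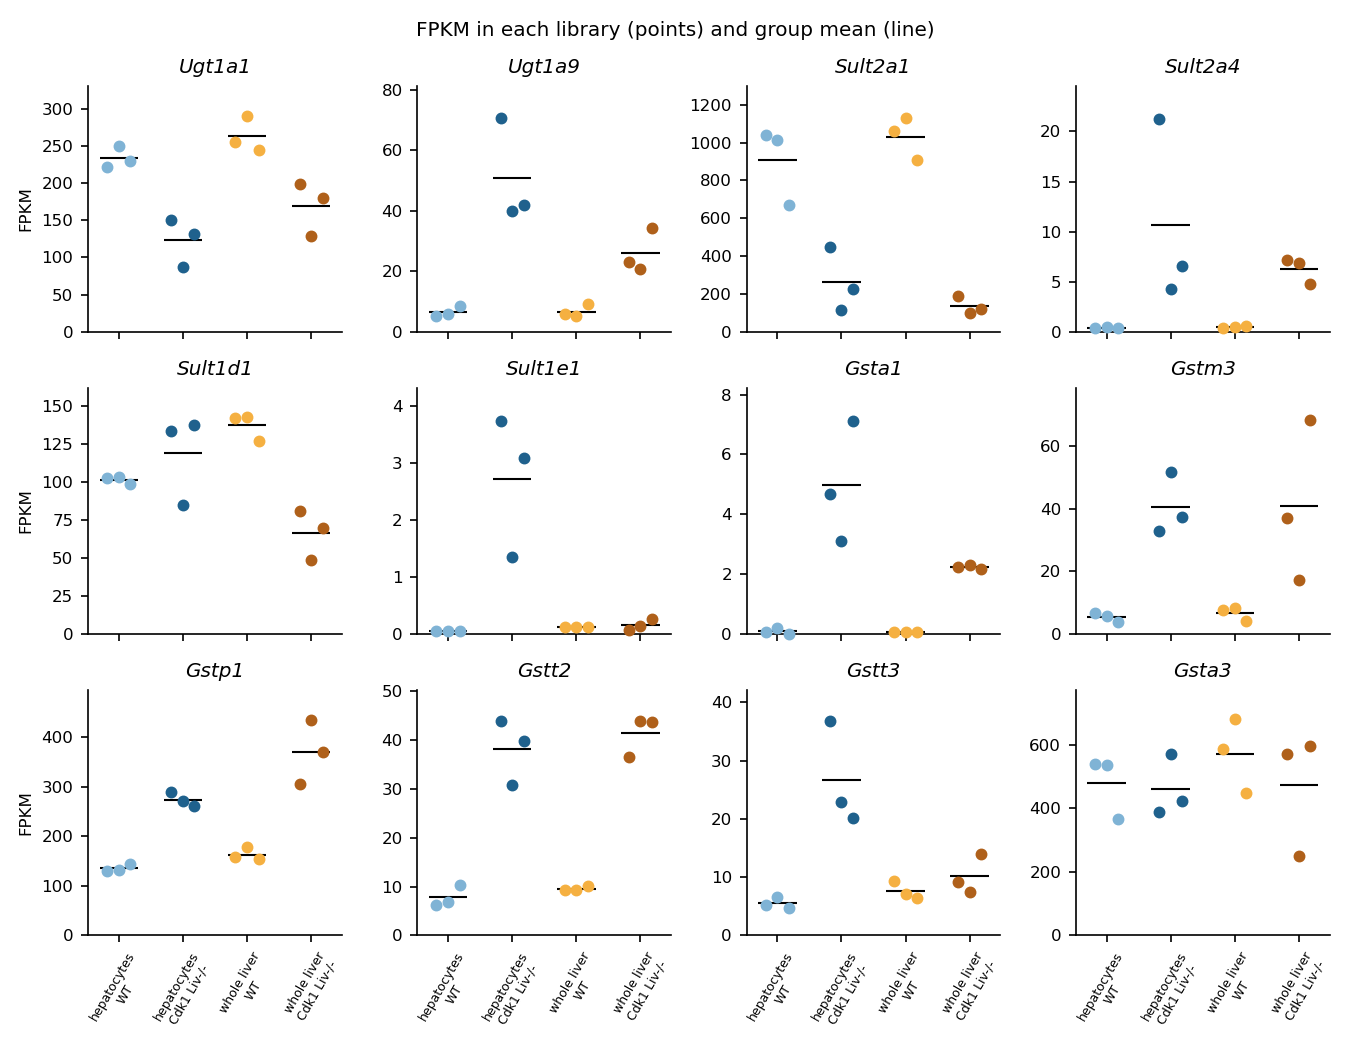
FPKM (linear vertical axes from 0) of 12 members in each library (points), with the mean of each group of 3 (line). *Ugt1a9*, *Sult2a4*, *Gsta1*, *Gstm3*, *Gstp1* and *Gstt2* are higher in the Cdk1 Liv-/- libraries of both compartments, *Sult2a1* and *Ugt1a1* lower, *Sult1e1* and *Gstt3* are set apart in Cdk1 Liv-/- hepatocytes, and *Gsta3* overlaps throughout.

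The alpha GST genes are led by *Gsta3* in liver and include *Gsta1* and *Gsta2*, near-copies of each other on chromosome 9. RefSeq promoter windows of GRCm38.p6, from 250 bases before to 50 after a start site, were at hand for 53 of the 61 members in 64 windows, and were searched on both strands for TGACNNNGC, the core of the antioxidant response element, and GCGTG, the core of the xenobiotic response element. TGACNNNGC was in 12.4% of all 32851 windows and in 3 of the 64 member windows, a smaller share. These were windows of *Gsta3*, *Gstm5* and *Gstm7*, called in neither compartment. GCGTG was in 32.4% of all windows and in 12 of the 64 member windows, again a smaller share, from 10 members. *Ugt1a5*, *Gstm5*, *Sult1b1* and *Sult2b1* of these 10 were called in neither compartment, and *Ugt1a8* was not tested. The other 5 were *Gsta1*, *Gsta2* and *Gstp1*, called higher in both compartments, *Gstm1*, called higher in hepatocytes, and *Sult1d1*, called lower in whole liver. Of all 50 members tested 14 were called higher in hepatocytes and 8 in whole liver. In *Gstm5* a GCGTG match at position -38 overlapped the TGACNNNGC match at -42. A stretch of 100 bases is printed for these 5 and for *Gsta3*, with the motif in capitals: for *Gsta1* chr9:78230572-78230671 (plus strand), *Gsta2* chr9:78347146-78347245 (minus), *Gstm1* chr3:108017998-108018097 (minus), *Gstp1* chr19:4037913-4038012 (minus), *Sult1d1* chr5:87569007-87569106 (minus, motif on the other strand) and *Gsta3* chr1:21240418-21240517 (plus).
Gsta1: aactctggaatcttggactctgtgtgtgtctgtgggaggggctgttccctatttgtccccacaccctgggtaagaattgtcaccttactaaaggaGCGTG
Gsta2: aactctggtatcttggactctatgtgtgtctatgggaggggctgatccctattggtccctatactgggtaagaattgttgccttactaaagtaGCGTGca
Gstm1: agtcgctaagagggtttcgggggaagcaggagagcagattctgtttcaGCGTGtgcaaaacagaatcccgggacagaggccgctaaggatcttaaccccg
Gstp1: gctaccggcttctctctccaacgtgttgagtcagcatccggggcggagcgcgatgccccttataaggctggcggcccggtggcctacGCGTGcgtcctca
Sult1d1: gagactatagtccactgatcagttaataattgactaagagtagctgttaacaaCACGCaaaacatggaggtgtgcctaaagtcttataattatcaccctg
Gsta3: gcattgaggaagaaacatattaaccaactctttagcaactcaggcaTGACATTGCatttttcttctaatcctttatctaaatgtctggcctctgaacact
A match is a description of these letters, and binding was not measured. *Gsta4*, *Gstt2*, *Sult2a1*, *Sult2a2*, *Sult2a7*, *Sult4a1*, *Ugt1a6b* and *Ugt3a2* had no window in the set used.

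Levels of *Gsta1* and *Gsta2* differed by genotype and those of *Gsta3* did not. Hepatocyte libraries had 0.04, 0.19 and 0.00 FPKM of *Gsta1* in WT and 4.68, 3.11 and 7.12 in Cdk1 Liv-/-. The whole-liver values of *Gsta1* were 0.04, 0.05 and 0.05 FPKM in WT and 2.22, 2.30 and 2.16 in Cdk1 Liv-/-. WT libraries of *Gsta1* were at or near 0 and all 6 Cdk1 Liv-/- libraries were at 2 FPKM or more, hepatocytes above whole liver. The change was 3.19 in hepatocytes (SE 0.30, adjusted p = 0.00333) and 2.32 in whole liver (SE 0.07, adjusted p = 8.68e-05), and with a pseudocount of 0.1 it was 4.91 and 3.99. *Gsta1* was tested at all only because its Cdk1 Liv-/- levels lifted it over the filter, so its p-values are not independent of the filter. In WT hepatocytes *Gsta2* was at 0.98, 0.79 and 2.05 FPKM, and in Cdk1 Liv-/- hepatocytes at 12.6, 4.94 and 8.57. WT whole liver gave 1.12, 1.16 and 1.30 FPKM and Cdk1 Liv-/- whole liver 2.93, 3.78 and 4.84. *Gsta2* was likewise higher in every Cdk1 Liv-/- library, in hepatocytes (log2 fold change 2.35, SE 0.40, adjusted p = 0.0179) and in whole liver (log2 fold change 1.34, SE 0.17, adjusted p = 0.00444, and 1.18 without replicate 3 of Cdk1 Liv-/-). WT hepatocytes gave 539, 535 and 367 FPKM for *Gsta3*, and Cdk1 Liv-/- hepatocytes gave 388, 572 and 423. For whole liver the values were 585, 681 and 449 FPKM in WT and 571, 249.7 and 596 in Cdk1 Liv-/-. *Gsta3* overlapped between the genotypes in both compartments, and its change had no steady sign. It was -0.06 in hepatocytes (adjusted p = 0.887), and 0.04 without WT replicate 1, 0.03 without WT replicate 2 and 0.06 without Cdk1 Liv-/- replicate 1. In whole liver it was -0.36 (adjusted p = 0.482), and 0.05 without Cdk1 Liv-/- replicate 2, the lowest library. *Gsta3* made up 94% of the summed Gsta FPKM in WT and 88.6% in Cdk1 Liv-/- hepatocytes, and that sum overlapped between the genotypes in both compartments (log2 difference 0.03, exact permutation p = 1.00, and -0.26, exact permutation p = 0.70).

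Several mu GST genes and the main pi gene were higher in Cdk1 Liv-/-, whereas *Gstm7* was not higher in hepatocytes (-0.05, adjusted p = 0.821) and was lower in whole liver without overlap (-0.38, adjusted p = 0.0171, short of the fold threshold). The level of *Gstm1* in hepatocytes was 157, 179 and 177 FPKM in WT and 416, 304 and 364 in Cdk1 Liv-/-. Whole-liver libraries held 179, 231 and 180.0 FPKM in WT and 379.9, 273 and 448 in Cdk1 Liv-/-. *Gstm1* (chr3:108012255-108017973, minus strand) was the most abundant mu gene, and its groups did not overlap in either compartment. It was called in hepatocytes (log2 fold change 1.07, SE 0.13, adjusted p = 0.00671), where the change was 0.96 without Cdk1 Liv-/- replicate 1 and 0.98 with size factors. In whole liver (log2 fold change 0.88, SE 0.20, adjusted p = 0.0237) it stayed under the fold threshold, which it passed without Cdk1 Liv-/- replicate 2 (1.08), and it was 0.72 without replicate 3. *Gstm3* measured 6.60, 5.59 and 3.77 FPKM in WT hepatocytes and 32.9, 51.8 and 37.3 in Cdk1 Liv-/- hepatocytes. Whole liver had 7.46, 8.11 and 3.90 FPKM in WT and 37.2, 17.1 and 68.3 in Cdk1 Liv-/-. *Gstm3* (chr3:107963696-107969283, minus strand) rose the most of the mu genes, in hepatocytes (log2 fold change 2.83, SE 0.24, adjusted p = 0.00248) and in whole liver (log2 fold change 2.41, SE 0.53, adjusted p = 0.0206), with a wide spread among the whole-liver Cdk1 Liv-/- libraries and a change of 1.94 without replicate 3. Hepatocyte libraries had 13.3, 13.0 and 11.6 FPKM of *Gstm6* in WT and 29.4, 36.5 and 25.7 in Cdk1 Liv-/-. The whole-liver values of *Gstm6* were 15.6, 17.3 and 14.7 FPKM in WT and 30.6, 25.8 and 37.3 in Cdk1 Liv-/-. *Gstm6* was higher in every Cdk1 Liv-/- library and was called in hepatocytes (log2 fold change 1.23, SE 0.14, adjusted p = 0.00583). In whole liver (log2 fold change 0.94, SE 0.14, adjusted p = 0.00713) it passed the fold threshold without WT replicate 2 (1.01) or Cdk1 Liv-/- replicate 2 (1.07). In WT hepatocytes *Gstm2* was at 17.2, 14.9 and 13.2 FPKM, and in Cdk1 Liv-/- hepatocytes at 24.6, 45.3 and 27.3. WT whole liver gave 31.6, 29.9 and 20.7 FPKM and Cdk1 Liv-/- whole liver 40.7, 16.0 and 42.5. *Gstm2* did not overlap in hepatocytes and did in whole liver. Its hepatocyte call (1.03, SE 0.24, adjusted p = 0.0461) was lost without WT replicate 1 (adjusted p = 0.102), WT replicate 2 (0.106), WT replicate 3 (0.94, adjusted p = 0.12) or Cdk1 Liv-/- replicate 2 (0.77), with size factors (0.95) and with no filter (0.12), its adjusted p running from 0.0302 to 0.12. The whole-liver change of *Gstm2* was 0.17 (adjusted p = 0.775) and -0.02 with size factors, and it changed sign without WT replicate 3 (-0.02), Cdk1 Liv-/- replicate 1 (-0.04) or Cdk1 Liv-/- replicate 3 (-0.08), with 0.62 without Cdk1 Liv-/- replicate 2. Summed over the Gstm genes, levels were 256, 277 and 264 FPKM in WT hepatocytes, 568, 511 and 512 in Cdk1 Liv-/- hepatocytes, 298, 352 and 284 in WT whole liver and 558, 393 and 670 in Cdk1 Liv-/- whole liver. Every Cdk1 Liv-/- sum was above every WT sum, by 1.00 in hepatocytes and 0.77 in whole liver on the log2 scale (exact permutation p = 0.10 each).

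The pi gene *Gstp1* (chr19:4035407-4037985, minus strand) held nearly all of the Gstp sum, 99% in WT hepatocytes. WT hepatocytes gave 130.4, 133 and 145 FPKM for *Gstp1*, and Cdk1 Liv-/- hepatocytes gave 289, 271 and 262. For whole liver the values were 157, 178 and 155 FPKM in WT and 305, 436 and 371 in Cdk1 Liv-/-. The genotypes were separate in both compartments, with a wider spread among the Cdk1 Liv-/- whole-liver libraries, in hepatocytes (log2 fold change 1.01, SE 0.08, adjusted p = 0.00196) and in whole liver (log2 fold change 1.17, SE 0.14, adjusted p = 0.00386, and 1.16 without replicate 3 of Cdk1 Liv-/-). The hepatocyte change of *Gstp1* was close to the fold threshold and under it without WT replicate 1 (0.98), WT replicate 2 (0.99) or Cdk1 Liv-/- replicate 1 (0.97) and with size factors (0.92), and the whole-liver change was 0.98 with size factors. The Gstp sum differed by 1.00 in hepatocytes and 1.16 in whole liver (exact permutation p = 0.10 each).

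Theta GST genes lie together on chromosome 10, and the substrates of the class include small halogenated compounds. The level of *Gstt2* in hepatocytes was 6.30, 6.74 and 10.3 FPKM in WT and 43.8, 30.7 and 39.7 in Cdk1 Liv-/-. Whole-liver libraries held 9.21, 9.29 and 10.1 FPKM in WT and 36.5, 43.8 and 43.6 in Cdk1 Liv-/-. *Gstt2* (chr10:75831114-75837424, minus strand) was higher in all 6 Cdk1 Liv-/- libraries, with similar levels in both compartments, and was called in hepatocytes (log2 fold change 2.24, SE 0.22, adjusted p = 0.00357) and in whole liver (log2 fold change 2.06, SE 0.09, adjusted p = 0.000207, and 2.01 without replicate 3 of Cdk1 Liv-/-). *Gstt3* measured 5.29, 6.52 and 4.78 FPKM in WT hepatocytes and 36.7, 23.0 and 20.1 in Cdk1 Liv-/- hepatocytes. Whole liver had 9.27, 7.18 and 6.42 FPKM in WT and 9.21, 7.48 and 13.9 in Cdk1 Liv-/-. *Gstt3* (chr10:75774115-75781414, minus strand) was higher in Cdk1 Liv-/- hepatocytes (log2 fold change 2.13, SE 0.24, adjusted p = 0.00554) and overlapped in whole liver (log2 fold change 0.37, SE 0.24, adjusted p = 0.283, and 0.13 without replicate 3 of Cdk1 Liv-/-). *Gstt1* was the most abundant theta gene, with 90.8% of the summed Gstt FPKM in WT and 61% in Cdk1 Liv-/- hepatocytes, while the share of *Gstt2* was 5.36% and 22.9%. *Gstt1* itself was lower in all 3 Cdk1 Liv-/- hepatocyte libraries (-0.38, adjusted p = 0.0423) and overlapped in whole liver (-0.12, adjusted p = 0.377). The Gstt sum differed little, by 0.19 in hepatocytes (exact permutation p = 0.10) and by 0.18 in whole liver (exact permutation p = 0.20), and by 0.10 and 0.00 with size factors. Hepatocyte libraries had 359, 333 and 291 FPKM of *Gstz1* in WT and 295, 308 and 282 in Cdk1 Liv-/-. The whole-liver values of *Gstz1* were 357, 358 and 329 FPKM in WT and 312, 236 and 315 in Cdk1 Liv-/-. *Gstz1*, the maleylacetoacetate isomerase of tyrosine breakdown, overlapped in hepatocytes (-0.15, adjusted p = 0.386) and was lower in each Cdk1 Liv-/- whole-liver library without passing the test (-0.29, adjusted p = 0.127). The other GST genes tested ran from -0.38 to 0.65 in hepatocytes and from -0.57 to 0.69 in whole liver.

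**Figure D4:**
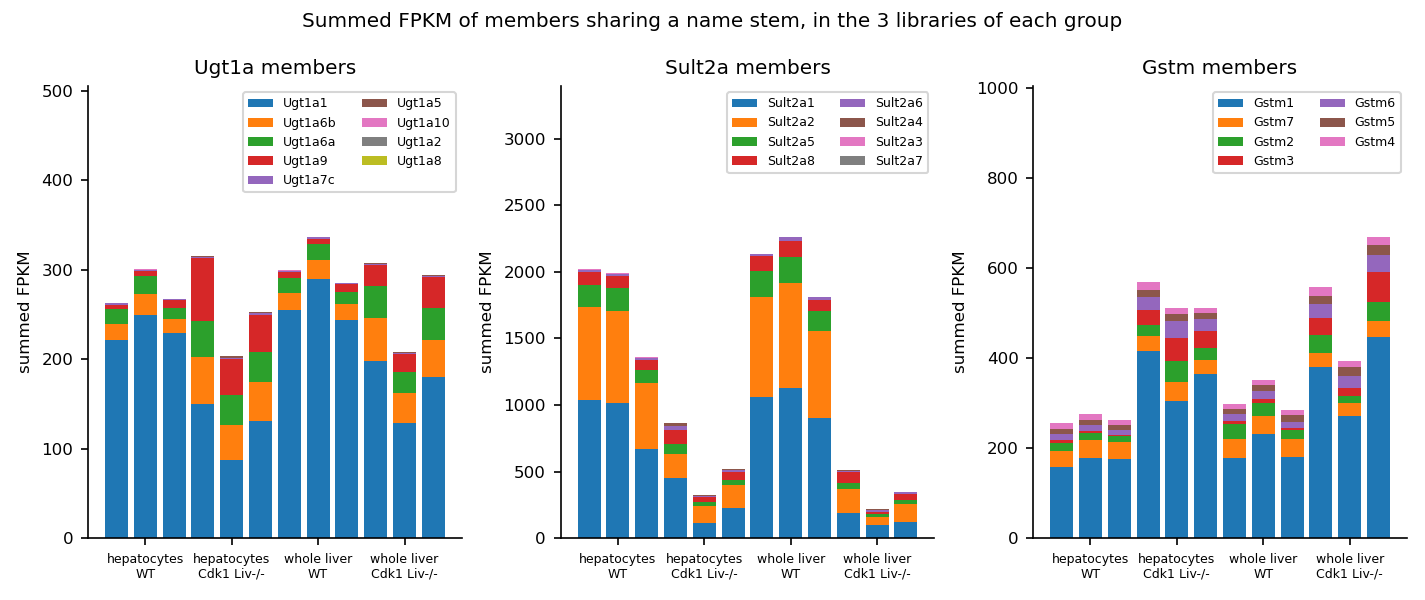
Summed FPKM (linear vertical axes from 0) of the Ugt1a, Sult2a and Gstm genes in the 3 libraries of each group, 1 bar a library, stacked by gene. The Ugt1a sums overlap between genotypes while the share of *Ugt1a1* is smaller in Cdk1 Liv-/-, the Sult2a sums are lower in all 6 Cdk1 Liv-/- libraries (218 to 868 against 1357 to 2263) and the Gstm sums higher (393 to 670 against 256 to 352).

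Whether the genotype effect differed between the compartments was tested with an interaction term in 1 fit of the 12 libraries. Of the 50 members 6 passed at adjusted p of at most 0.1, all with the effect in hepatocytes above that in whole liver, where 2.35% of all genes passed in that direction. No member passed with the effect in hepatocytes below that in whole liver, beside 7.49% of all genes. At an unadjusted p under 0.05 limma had 10 members above and 0 below, with the share of all genes not counted. The limma term had adjusted p = 0.0183 for *Sult1e1* (2.41), 0.0445 for *Gstt3* (1.76) and 0.0521 for *Sult1d1* (1.26), the 3 largest. The others were *Ugt2a3* (1.11, adjusted p = 0.0548), the mitochondrial and peroxisomal GST *Gstk1* (0.89, adjusted p = 0.045) and *Sult5a1* (0.83, adjusted p = 0.0622), named here after their values were seen. In WT hepatocytes *Gstk1* was at 80.1, 74.0 and 71.0 FPKM, and in Cdk1 Liv-/- hepatocytes at 116, 81.5 and 86.3. WT whole liver gave 86.6, 82.2 and 78.7 FPKM and Cdk1 Liv-/- whole liver 59.9, 48.3 and 58.8. For *Gstk1* the Cdk1 Liv-/- libraries were slightly above WT in hepatocytes without passing the test (0.32, adjusted p = 0.208), and below WT in whole liver (-0.57, adjusted p = 0.00955). WT hepatocytes gave 23.7, 18.9 and 20.1 FPKM for *Ugt2a3*, and Cdk1 Liv-/- hepatocytes gave 30.2, 24.5 and 27.2. For whole liver the values were 21.0, 23.2 and 22.5 FPKM in WT and 16.8, 9.23 and 14.7 in Cdk1 Liv-/-. *Ugt2a3* showed the same order, just passing the adjusted p in hepatocytes (0.38, adjusted p = 0.0996) and lower in whole liver (-0.73, adjusted p = 0.045). The level of *Sult5a1* in hepatocytes was 0.98, 1.01 and 1.15 FPKM in WT and 1.30, 0.76 and 0.90 in Cdk1 Liv-/-. Whole-liver libraries held 1.34, 1.70 and 1.52 FPKM in WT and 0.54, 0.70 and 0.51 in Cdk1 Liv-/-. *Sult5a1* overlapped in hepatocytes and was lower in each Cdk1 Liv-/- whole-liver library.

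Passing the interaction depended on single libraries through the adjusted p. The 6 became 1 without whole liver WT replicate 1 (*Sult1e1*), 3 without whole liver WT replicate 2 and 11 without Cdk1 Liv-/- hepatocyte replicate 2, and were 5 without whole liver Cdk1 Liv-/- replicate 3. *Sult1e1* alone passed under all alternatives in which it was tested, its adjusted p between 0.000297 and 0.0589, and with a filter at a mean of 1 FPKM it was not tested. Its mean came mainly from Cdk1 Liv-/- hepatocytes, so its p-values are not independent of the filter. Without whole liver WT replicate 1 the adjusted p was 0.13 for *Gstk1*, 0.127 for *Gstt3*, 0.14 for *Sult1d1*, 0.139 for *Sult5a1* and 0.137 for *Ugt2a3*, the highest of each over its alternatives, from lows of 0.0291, 0.0207, 0.017, 0.0484 and 0.0463. The terms themselves moved little without that library (0.85, 1.62, 1.24, 0.89 and 1.15, in the same order). Without whole liver WT replicate 2 it was 0.109 for *Sult1d1*, 0.129 for *Sult5a1* and 0.111 for *Ugt2a3*. *Ugt2a3* also missed the threshold without whole liver WT replicate 3 (0.103). *Sult5a1* missed it without whole liver WT replicate 3 (0.114), WT hepatocyte replicate 1 (0.103) or whole liver Cdk1 Liv-/- replicate 3 (0.114) and with no filter (0.106). Members gained without Cdk1 Liv-/- hepatocyte replicate 2 were *Gsta1* (1.14), *Gsta2* (1.34), *Gsto1* (0.69), *Sult1a1* (0.69) and *Sult2a1* (1.49), and *Gsta1* also passed without WT hepatocyte replicate 2 (1.01). Median interaction was 0.31 for the members and -0.11 for all genes, and with size factors 0.40 and -0.03, while the share of all passing genes with hepatocytes above went from 23.9% to 44.2%. Marker genes passed the interaction as well. With the effect in hepatocytes below that in whole liver there were 8 of 10 endothelial, 3 of 10 Kupffer cell, 3 of 10 stellate and fibroblast, 2 of 10 neutrophil and monocyte, 1 of 10 lymphoid and 1 of 8 cholangiocyte genes. With it above there were 2 of 10 hepatocyte genes, *Cps1* (1.61, adjusted p = 0.01) and *Serpina1c* (0.49, adjusted p = 0.087). The part of these lists in the differences of the members was not tested.

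Between WT hepatocytes and WT whole liver limma called 0 members higher and 0 lower, beside 0.0403% and 0.426% of all genes. At an unadjusted p under 0.05 there were 9 members, all lower in hepatocytes, with the share of all genes not counted. The alternatives, among them 1 fit over all 12 libraries, also called 0 members. At adjusted p alone *Sult1d1* (-0.43, SE 0.06, adjusted p = 0.0771) and *Sult1a1* (-0.27, SE 0.05, adjusted p = 0.0923) were lower in hepatocytes, each of them in all 3 libraries, and 8 members were so without WT hepatocyte replicate 3. Changes of the members ran from -0.82 (*Gstm2*) to 0.21, with a median of -0.15 beside -0.10 for all genes.

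Genes that supply the co-substrates or act beside these enzymes were read from fixed lists, with values for the 2 highest and 2 lowest changes, by sign, in hepatocytes. Calls on all these lists stand beside 4.20% of all genes called higher and 2.17% lower in hepatocytes, and 4.59% and 1.00% in whole liver. Of 6 genes for UDP-glucuronic acid supply 1 was called higher in both compartments, *Ugdh*, which makes the co-substrate of the UGT enzymes. Its level was 7.46 ± 0.63 FPKM in WT and 36.4 ± 3.1 in Cdk1 Liv-/- hepatocytes (SD, n = 3), a limma log2 fold change of 2.21 (adjusted p = 0.000497), and 1.49 (adjusted p = 0.00728) in whole liver. The change was 0.63 for *Ugp2*, 0.23 for *Gusb* and -0.13 for *Slc35b4*. For PAPS supply 1 of 9 genes tested was called higher and 1 lower in hepatocytes, and 1 higher in whole liver. The PAPS synthase *Papss1* was 6.73 ± 0.052 FPKM in WT and 2.86 ± 0.656 in Cdk1 Liv-/- hepatocytes (SD, n = 3), a limma fall of 1.13 (adjusted p = 0.0121), with -0.28 (adjusted p = 0.175) in whole liver. Outside the 2 highest and 2 lowest changes, the more abundant synthase *Papss2* was at 76.9, 81.6 and 62.9 FPKM in WT hepatocytes. Cdk1 Liv-/- hepatocytes had 89.3, 82.2 and 73.6 FPKM of it. Whole-liver values of *Papss2* were 84, 86.9 and 70.4 FPKM in WT and 57.4, 34.9 and 50 in Cdk1 Liv-/-. The sulfatase *Arsa* rose by 1.15 in hepatocytes (adjusted p = 0.0341), and *Bpnt1* (0.39) and the sulfite oxidase *Suox* (-0.47) did not pass. Glutathione synthesis and turnover had 1 of 15 genes called higher and 1 lower in hepatocytes, and 1 lower in whole liver. *Cth*, which releases cysteine for glutathione, fell by 1.37 (adjusted p = 0.00346) and in whole liver by 1.71 (adjusted p = 0.0136). *Ggt6* rose by 1.63 in hepatocytes (adjusted p = 0.00671), while *Oplah* (0.84) and *Gclc* (-0.39), the catalytic subunit of glutathione synthesis, did not pass.

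Among 20 other conjugating enzymes 3 were called higher and 0 lower in hepatocytes, and 3 higher and 1 lower in whole liver. At an unadjusted p under 0.05 limma had 11 higher and 1 lower in hepatocytes, and 9 higher and 3 lower in whole liver. At adjusted p alone 10 were higher and 1 lower in hepatocytes, beside 12.1% and 6.61% of all genes. In whole liver they were 8 and 3, beside 38.0% and 7.53%. The nicotinamide methyltransferase *Nnmt* was 1.5 ± 1.29 FPKM in WT and 67.3 ± 22.2 in Cdk1 Liv-/- hepatocytes (SD, n = 3), a limma change of 5.21 (adjusted p = 0.00318), and 1.53 (adjusted p = 0.166) in whole liver. *Baat*, which joins bile acids to amino acids, rose by 1.54 in hepatocytes (adjusted p = 0.00428), and the lowest changes were -0.75 for *Acsm3* and -0.75 for *Hpgds*. Of 11 xenobiotic and lipid sensors 1 was called higher in both compartments and 1 lower in whole liver. *Nfe2l2*, which encodes NRF2, was 25 ± 1.24 FPKM in WT and 55.3 ± 4.86 in Cdk1 Liv-/- hepatocytes (SD, n = 3), a limma change of 1.13 (adjusted p = 0.00196), and 1.29 (adjusted p = 0.000259) in whole liver. *Hnf4a* was at 0.45, *Ahr* at -0.27 and *Ppara* at -0.67 in hepatocytes, and *Ppara* fell by 1.34 in whole liver (adjusted p = 0.0113). NRF2 target genes had 2 of 10 called higher and none lower in each compartment by limma, and at adjusted p alone 5 higher in hepatocytes and 8 in whole liver, beside 12.1% and 38.0% of all genes. *Srxn1* (1.21, adjusted p = 0.00216) and *Me1* (1.14, adjusted p = 0.0265) were the called ones in hepatocytes, and *Gclc* (-0.39) and *Hmox1* (-0.39) had the lowest changes. AhR, CAR and PXR target genes had 0 of 11 called higher and 2 lower in hepatocytes, and 1 higher and 3 lower in whole liver, with 3 higher and 3 lower in hepatocytes at an unadjusted p under 0.05. The CAR target *Cyp2b10* fell by 1.45 (adjusted p = 0.0583) and *Ces2a* by 1.19 (adjusted p = 0.0271) in hepatocytes, where *Tiparp* (0.74) and *Cyp3a11* (0.66) were highest. Conjugate efflux transporters had 1 of 9 called higher in hepatocytes and 2 in whole liver. At adjusted p alone 1 was higher and 0 lower in hepatocytes, beside 12.1% and 6.61% of all genes. In whole liver 7 were higher and 1 lower at adjusted p alone, beside 38.0% and 7.53%. The efflux pump gene *Abcb1b* rose by 4.02 in hepatocytes (adjusted p = 0.000409) and by 2.99 in whole liver (adjusted p = 0.000286), and in hepatocytes *Abcc3* was at 0.63, *Abcc6* at -0.22 and *Abcc1* at -0.32.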

How the data were processed

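The authors deposited 1 table of FPKM per gene for the 12 libraries, made per their processing notes with STAR and RSEM 1.2.31 on mm10; no counts were used here. Libraries were grouped by their labels into 4 groups of 3. Values were tested as log2(FPKM + 0.5) with limma 3.58.1 in R 4.3.3 (eBayes with a trend, two-sided, Benjamini-Hochberg over 17386 genes averaging 0.1 FPKM or more), within each compartment for genotype, and over all 12 libraries for the interaction term. Calls required an adjusted p no higher than 0.1 and a log2 change of 1 or more in either direction (for the interaction, adjusted p alone). Sums over members sharing a name stem were tested by exact permutation, two-sided. The scripts were tested on simulated data.

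Alternatives were pseudocounts of 0.1 and 1, no filter or a mean FPKM of at least 1, median-ratio size factors, equal sums, a replicate block, a two-sample test per gene with q-values, 1 fit over all 12 libraries, and each library left out in turn. Gene positions and transcript sequences were those of GENCODE M21 and promoter windows those of RefSeq. Python 3.11.15 was used with numpy 2.4.6, scipy 1.17.1 and pandas 2.3.3. Depth was estimated from low FPKM, which lie near multiples of 1 read, at 34.4 to 49.4 reads per FPKM and kb; RSEM does not give whole reads, so no reads were recovered.

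Named members were those called by genotype in either compartment, the 3 of each family with the highest mean FPKM, and the 3 with the largest interaction. From each of 8 pathway lists the 2 highest and 2 lowest changes in hepatocytes were named, and *Papss2* was added. The other 8 lists hold cell type markers. Members and lists were chosen with earlier results of these data known.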

Additional observations from a re-analysis of the deposited data

Results flagged for a closer look

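The genotype effect differed between hepatocytes and whole liver, by the limma interaction at an adjusted p of at most 0.1, for 6 members. The effect in hepatocytes minus that in whole liver, on the log2 scale, was 2.41 for *Sult1e1*, 1.76 for *Gstt3*, 1.26 for *Sult1d1*, 1.11 for *Ugt2a3*, 0.89 for *Gstk1* and 0.83 for *Sult5a1*. *Sult1e1* and *Gstt3* were higher in Cdk1 Liv-/- hepatocytes and overlapped in whole liver, *Sult1d1* and *Sult5a1* overlapped in hepatocytes and were lower in whole liver, and *Gstk1* and *Ugt2a3* were lower in whole liver and slightly higher in hepatocytes, where *Gstk1* did not pass the test (0.32, adjusted p = 0.208) and *Ugt2a3* only just did (0.38, adjusted p = 0.0996). Among cell type markers, 2 of 10 hepatocyte genes passed the interaction in the same direction. In the other direction passed 8 of 10 endothelial, 3 of 10 Kupffer cell, 3 of 10 stellate and fibroblast and 2 of 10 neutrophil and monocyte genes. So did 1 of 10 lymphoid and 1 of 8 cholangiocyte genes. Their part was not tested.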

How the results depend on the processing

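Of the calls, 11 of 18 in hepatocytes, 10 of 15 in whole liver and 0 of 6 in the interaction were tested and kept under every alternative. *Sult1e1*, called in hepatocytes and in the interaction, was kept wherever tested, but was not tested with a filter at a mean of 1 FPKM. Its p-values are not independent of the filter, since its mean came mainly from Cdk1 Liv-/- hepatocytes. Members called lower in hepatocytes were 2 with no filter, against 4. With single libraries left out they were 2 to 6, those called lower in whole liver 4 to 7, and those above in the interaction 1 to 11. With size factors the log2 difference of the sums was -0.49 for Ugt2b in whole liver, 0.91 for Gstm and 0.91 for Gstp in hepatocytes, and 0.10 and 0.00 for Gstt in hepatocytes and whole liver. Within each compartment the size factors of WT libraries were the lower ones.

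Directions turned only for changes that were not called in that compartment. *Gsta3* ran from -0.24 to 0.06 in hepatocytes and from -0.58 to 0.05 in whole liver, and *Sult1e1* in whole liver from -0.04 to 0.16, with libraries left out. *Gstm2* in whole liver was -0.02 with size factors and ran from -0.08 to 0.62 with libraries left out. The cause was not tested. Among members not named by the rule, *Ugt1a5* was called higher in hepatocytes without WT replicate 2 (1.07) or Cdk1 Liv-/- replicate 1 (1.17), and *Sult2a6* lower in whole liver without WT replicate 1 (-1.01). With a pseudocount of 0.1 *Ugt1a5* (1.67) and *Sult2b1* (1.29) were called in hepatocytes and *Sult5a1* (-1.25) in whole liver. *Ugt1a5* was also called with equal sums (1.00) and *Sult5a1* with size factors. Over the genotype changes of all named members, 751 comparisons with an alternative kept direction and call status, 39 lost a call, 9 gained one and 9 turned.

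With a replicate block the calls were 13 higher and 4 lower in hepatocytes, 8 and 6 in whole liver, 5 and 0 in the interaction, and 0 and 0 between WT compartments. The calls it lost were *Gstm2* in hepatocytes (adjusted p = 0.101), *Sult2a8* in whole liver (0.118) and *Sult5a1* in the interaction (0.112). The numbers did not pair the libraries: deviations of libraries with the same number correlated from -0.317 to 0.239. The two-sample test with q-values called 14 higher and 4 lower in hepatocytes and 8 and 7 in whole liver; it was not run for the interaction or between WT compartments, and 1 fit over all 12 libraries is already the interaction's own. Where 2 libraries were left in a group, the spread was estimated from fewer samples.

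Limits are the 3 libraries a group, 1 library that goes against the stated sex, reads divided between copies, and low levels resting on few reads. Markers of other cells differed between groups. Fold changes of low genes depend on the pseudocount.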
